A study of Homo sapiens with 9 samples.

Results

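FIBP, the acidic fibroblast growth factor intracellular binding protein, was examined together with its ligand FGF1, the related ligand FGF2 and the 5 FGF receptor genes FGFR1, FGFR2, FGFR3, FGFR4 and FGFRL1 in H1299 cells depleted of FIBP. H1299, a human cell line from a non-small cell carcinoma of the lung, is established in culture, and all samples came from this line. RNA-seq was performed 48 h after siRNA transfection on 3 samples that received a scrambled siRNA (Scramble), 3 that received Si-FIBP#1 and 3 that received Si-FIBP#2, an independent siRNA against the same gene. The study describes its experiments in general as independently repeated, but the labels do not say whether the 3 samples of a group came from separate cultures. The p-values therefore measure the spread between these samples, which may be technical. The members were the rows that carry these 8 gene names, 148 of 244443 transcripts and 8 of 60966 genes. Levels are in FPKM, fragments per length of transcript, scaled to the mapped fragments of the library, summed over the transcripts of a gene.

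Fibroblast growth factors bind receptor tyrosine kinases at the cell surface with heparan sulfate proteoglycans as co-receptors, and the activated receptors signal through the adaptor FRS2 to the RAS-MAPK and PI3K pathways. FGF1 and FGF2 lack a classical secretion signal. FGF1 can also pass from outside the cell into the cytosol and nucleus, and FIBP was first described as an intracellular protein that binds it there. FGFR1 to FGFR4 carry kinase domains, while FGFRL1 has the ligand-binding part without the kinase.

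The libraries held an estimated 19920000 to 23780000 fragments, taken from the steps between low FPKM values. The line was compared with its defining markers. The epithelial cadherin CDH1 was listed at 0 in all 9 samples and EPCAM stayed at or below 0.28 FPKM, while the epithelial keratins KRT8 and KRT18 were present. Vimentin (VIM) averaged 3232 FPKM in Scramble, 2307 under Si-FIBP#1 and 1988 in the Si-FIBP#2 samples. In the same order KRT18 averaged 476, 209 and 175 FPKM, KRT8 107, 73.4 and 75.9 FPKM, and N-cadherin (CDH2) 13.3, 17.3 and 18.3 FPKM. Summed markers of blood cells, endothelium and lung lineage stayed at or below 0.34 FPKM. The 4 fibroblast markers summed to 0.21 to 0.89 FPKM in Scramble, 1.00 to 1.75 under Si-FIBP#1 and 1.06 to 3.22 with Si-FIBP#2. By group, COL1A1 averaged 0.08, 0.69 and 1.09 FPKM, DCN 0.31, 0.56 and 0.75, and PDGFRB 0.13, 0.25 and 0.21. COL1A2 stayed at or below 0.02 FPKM. The part of these markers in the results below was not tested.

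FIBP lies on the minus strand of chromosome 11, chr11:65883741-65888539 in GRCh38 (GENCODE release 29). Its most abundant transcripts in Scramble, ENST00000357519 and ENST00000338369, both code for protein and differ inside the coding sequence. ENST00000338369 extends exon 5 of 10 by 21 nt (chr11:65885509-65885529), which adds 7 codons in frame. The junction is shown here from the GENCODE transcripts, 5′ to 3′, with 30 nt on each side and the added segment in capitals.
FIBP ENST00000338369: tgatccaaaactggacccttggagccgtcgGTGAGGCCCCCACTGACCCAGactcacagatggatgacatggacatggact
FIBP ENST00000357519: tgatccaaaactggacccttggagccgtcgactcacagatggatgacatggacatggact

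FIBP, the siRNA target, was measured first. It stood at 88.38, 79.49 and 77.74 FPKM in Scramble, at 7.49, 7.77 and 4.30 FPKM in the Si-FIBP#1 samples and at 7.13, 5.92 and 8.21 FPKM in the Si-FIBP#2 samples. All 6 depleted samples lay far below Scramble and the samples of the siRNAs overlapped. FIBP fell to 7.96% of Scramble under Si-FIBP#1 and to 8.66% with Si-FIBP#2, the lowest log2 fold change of the 14985 genes tested with either siRNA (limma on log2(FPKM + 1), -3.50 with SE 0.18, Benjamini-Hochberg adjusted p = 9.4e-07, and -3.36 with SE 0.18, adjusted p = 1.4e-06). Of all genes tested, 16.5% had all 6 depleted samples below Scramble.

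The transcripts of FIBP did not fall alike. The form without the added segment, ENST00000357519, was at 45.49, 47.25 and 45.57 FPKM in Scramble. It was at 0.52, 0.06 and 0.66 FPKM in the Si-FIBP#1 samples and at 0.57, 0.08 and 0.78 FPKM in the Si-FIBP#2 samples. The form with the segment, ENST00000338369, was at 17.35, 13.23 and 17.37 FPKM in Scramble, was listed at 0 in 3 of 3 samples with Si-FIBP#1 and reached 0.41 FPKM in 1 of 3 samples with Si-FIBP#2. Both forms therefore fell to near 0 with both siRNAs. The forms differ in coding sequence by the added segment only, so the reads they share are split by estimate. A listed 0 for ENST00000338369 therefore sets no limit on how far it fell. The 3 protein-coding transcripts together averaged 62.8 ± 1.73 FPKM in Scramble (SD, n = 3), 0.41 ± 0.31 under Si-FIBP#1 and 0.61 ± 0.15 with Si-FIBP#2, which is 0.66% and 0.98% of Scramble.

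What remained of FIBP came mostly from other transcripts. The 10 other Ensembl transcripts summed to 13.6 ± 5.50 FPKM in Scramble, 2.91 ± 1.59 under Si-FIBP#1 and 3.04 ± 0.87 in the Si-FIBP#2 samples. The 2 transcripts that the authors' pipeline assembled from the reads summed to 5.01, 5.84 and 5.59 FPKM in Scramble, 3.75, 3.39 and 2.46 under Si-FIBP#1 and 3.44, 3.30 and 3.57 in the Si-FIBP#2 samples. Their levels were 58.4% and 62.7% of Scramble and did not overlap with it. Tested singly, the 6402 nt transcript had -0.41 and -0.34 (limma, adjusted p = 0.086 and 0.16) and the 6204 nt transcript fell (-0.73 and -0.67, adjusted p = 0.030 and 0.044, with no alternative settings run for it, and having passed the filter through Scramble alone). At 6402 and 6204 nt they are longer than the 4799 bp of the annotated gene, and the name of their assembled locus is shared with transcripts of the neighbour FOSL1. Without them the log2 fold change of FIBP was -4.21 with Si-FIBP#1 and -4.08 in the Si-FIBP#2 samples. The leading transcript ENST00000357519 made up 56.5 ± 4.38% of FIBP in Scramble, 7.69 ± 7.32% under Si-FIBP#1 and 6.28 ± 4.34% with Si-FIBP#2 (two-sided exact permutation test of 6 against 3 samples, p = 0.0238, the smallest this design allows, 0.0595 after Benjamini-Hochberg adjustment over 5 members). ENST00000357519 was the most abundant FIBP transcript in Scramble, where FIBP was far higher. Its choice as leading transcript therefore favoured a higher share in Scramble. The permutation test also pooled the samples of both siRNAs. No change in transcript use is read from it.

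**Figure D1:**
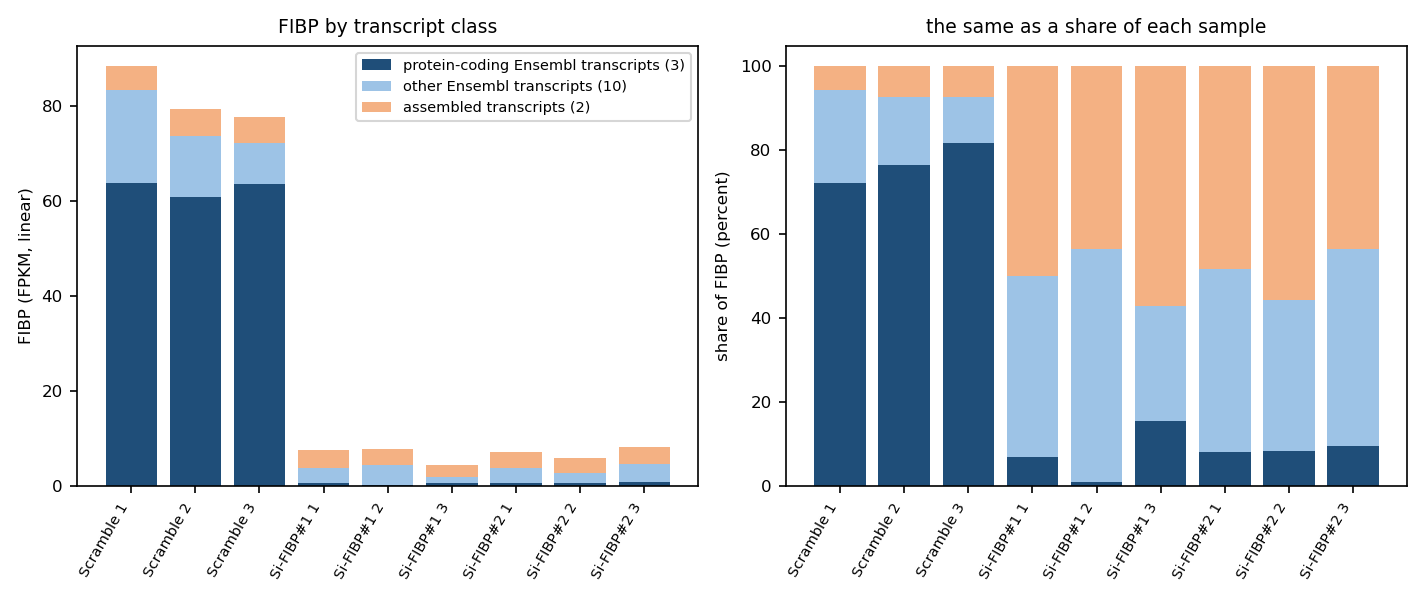
FIBP in each of the 9 samples by transcript class, in FPKM (left) and as a percent of the sample's FIBP (right). The protein-coding transcripts are at 60.8 to 63.9 FPKM in the 3 Scramble samples and at or below 0.78 FPKM in the 6 depleted samples.

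FGF1, the ligand that FIBP binds, was the other member that was differentially expressed with both siRNAs, at the study's thresholds of a fold change over 2 and an FDR below 0.05. It was at 2.96, 3.14 and 2.13 FPKM in Scramble, at 0.76, 0.72 and 0.62 FPKM in the Si-FIBP#1 samples and at 0.71, 0.18 and 0.59 FPKM in the Si-FIBP#2 samples. No depleted sample overlapped with Scramble, and the lowest value was in Si-FIBP#2 replicate 2. FGF1 fell to 25.5% of Scramble under Si-FIBP#1 and to 18.0% with Si-FIBP#2 (limma, log2 fold change -1.13 with SE 0.18, adjusted p = 6.1e-04, and -1.33 with SE 0.18, adjusted p = 2.2e-04). On this scale a low gene's change is understated, and with a pseudocount of 0.1 FPKM the values were -1.81 and -2.38. FGF1 passed the filter on low values through its 3 Scramble samples alone, and an estimated 127 to 165 fragments stood behind it in Scramble, 33 to 39 under Si-FIBP#1 and 13 to 51 in the Si-FIBP#2 samples. FIBP and FGF1 were the 2 of the 7 members tested that were called lower with each siRNA. Over all genes tested the share was 3.11% with Si-FIBP#1, 2.13% with Si-FIBP#2 and 1.53% with both, and nothing is read from the members' count against it, since FIBP is the siRNA target and the filter let FGF1 in only as a gene higher in Scramble. These comparisons share their Scramble samples.

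FGF1 spans chr5:142592178-142698070 on the minus strand. Most of its FPKM came from 1 of 16 listed transcripts, ENST00000359370 (3660 nt, 4 exons), which was at 2.01, 2.02 and 1.76 FPKM in Scramble, at 0.44, 0.37 and 0.41 in the Si-FIBP#1 samples and at 0.52, 0.18 and 0.37 in the Si-FIBP#2 samples. This transcript fell with both siRNAs (limma over 47662 transcripts, log2 fold change -1.06, adjusted p = 0.0030, and -1.12, adjusted p = 0.0024). It passed the filter on low values through the 3 Scramble samples alone and so had to be lower in the depleted samples, and the share of transcripts called lower, 2.99% under Si-FIBP#1 and 2.26% with Si-FIBP#2, is given as background only. In release 29 the transcript starts at position 142621342, inside none of the 4 RefSeq promoter windows of FGF1 and 22848 bp downstream of the nearest (GRCh38.p14, chr5:142644190-142644489). The other FGF1 transcripts stayed at or below 0.92 FPKM in every sample.

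FGF2, the ligand that binds all 4 kinase receptors in at least some of their splice forms, was at 5.62, 5.80 and 5.75 FPKM in Scramble. It was at 5.73, 6.34 and 6.29 FPKM in the Si-FIBP#1 samples and at 7.23, 6.28 and 7.30 FPKM in the Si-FIBP#2 samples. The Si-FIBP#1 samples overlapped with Scramble and the Si-FIBP#2 samples lay above it, as for 36.1% of all genes tested. The log2 fold change was 0.08 under Si-FIBP#1 (limma, adjusted p = 0.44) and 0.24 with Si-FIBP#2 (SE 0.08, adjusted p = 0.037), and the latter did not pass the threshold after median-ratio scaling of the samples (0.14, adjusted p = 0.23) or with the replicate number as a block (adjusted p = 0.058). Without 1 sample the adjusted p ran from 0.014 to 0.12 and stayed below 0.05 in 3 of 9 fits, those without Si-FIBP#1 replicate 1, Si-FIBP#1 replicate 3 or Si-FIBP#2 replicate 2. FGF2 was thus 1.85 to 2.70 times the level of FGF1 in Scramble and 7.54 to 34.9 times in the depleted samples, the highest in Si-FIBP#2 replicate 2, where FGF1 was lowest.

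FGFR1 was the main receptor. It was at 33.22, 30.55 and 29.63 FPKM in Scramble, at 28.98, 29.62 and 27.26 FPKM in the Si-FIBP#1 samples and at 26.39, 32.77 and 28.69 FPKM with Si-FIBP#2, and the Si-FIBP#2 samples overlapped with Scramble while those of Si-FIBP#1 lay just below it, as they did for 24.3% of all genes tested. It made up 88.3% to 90.1% of the summed FPKM of FGFR1 to FGFR4 in Scramble and 83.0% to 88.2% in the depleted samples. The difference from Scramble did not pass the test (limma, log2 fold change -0.12, 95% interval -0.30 to 0.07, adjusted p = 0.27 with Si-FIBP#1, and -0.09, interval -0.27 to 0.10, adjusted p = 0.40 with Si-FIBP#2). After median-ratio scaling, which moved the median of all genes in the Si-FIBP#2 comparison from 0.11 to 0.01, it was -0.20 with adjusted p = 0.047 for Si-FIBP#2. The gene sum joins classes that did not move alike. In Scramble, Si-FIBP#1 and Si-FIBP#2 the 20 protein-coding transcripts averaged 17.1, 15.4 and 14.0 FPKM. The 28 other Ensembl transcripts averaged 7.30, 7.81 and 10.4 FPKM, and the 3 assembled ones 6.78, 5.41 and 4.88 FPKM. Differences in these class sums were not tested.

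The transcripts of FGFR1 were then separated by exon. The gene lies on chromosome 8 (38400215 to 38468834, minus strand) and 44 of its 51 listed transcripts had a value above 0. Skipping the exon for the first immunoglobulin-like (Ig) domain gives a shorter receptor form with 2 Ig domains, known to bind FGFs more tightly. The alternative exons for the later part of the third Ig domain, IIIb and IIIc, set which FGFs are bound, and mesenchymal cells mostly use IIIc. Of the protein-coding models that span this exon and code for at least 2000 nt, 3 lack the exon for the first Ig domain and 7 include it. The 3 without it summed to 9.27, 8.78 and 9.53 FPKM in Scramble, to 6.42, 5.79 and 5.64 FPKM with Si-FIBP#1 and to 4.89, 6.31 and 5.76 FPKM in the Si-FIBP#2 samples. All 6 depleted samples lay below Scramble, at 64.7% and 61.5% of its mean. Of all genes tested 16.5% had all 6 below, and no such share was taken for sums of transcripts. The 7 with the exon summed to 6.15, 6.42 and 8.29 FPKM in Scramble, 6.11, 6.47 and 6.11 under Si-FIBP#1 and 7.42, 8.63 and 7.46 with Si-FIBP#2, so that the groups overlapped. These sums were chosen after their values were seen and were not tested. Overlapping transcripts share reads, so the sums and the values of single transcripts carry the error of the estimate that splits them.

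Single transcripts were tested. ENST00000326324, the leading FGFR1 transcript and without the exon for the first Ig domain, was at 4.08, 3.78 and 4.65 FPKM in Scramble, 2.37, 1.77 and 2.06 under Si-FIBP#1 and 2.58, 3.30 and 2.59 in the Si-FIBP#2 samples. It fell with Si-FIBP#1 (limma, log2 fold change -0.75, adjusted p = 0.0054), and the value with Si-FIBP#2 was -0.44 (adjusted p = 0.053, but 0.034 after median-ratio scaling, 0.049 with no trend and, at -0.52, 0.044 without Si-FIBP#2 replicate 2). ENST00000356207, of the same kind, was at 2.73, 3.37 and 3.27 FPKM in Scramble, 2.72, 2.67 and 1.70 under Si-FIBP#1 and 1.23, 1.73 and 1.44 in the Si-FIBP#2 samples. It fell with Si-FIBP#2 (-0.74, adjusted p = 0.015, and -0.70 with adjusted p = 0.055 without Scramble replicate 2) and had -0.31 with Si-FIBP#1 (adjusted p = 0.23). These were the only FGFR1 transcripts among 16 tested with an adjusted p below 0.05 in either comparison, beside 20.7% and 19.1% of all transcripts tested. Neither passed the test between the siRNAs (Si-FIBP#2 against Si-FIBP#1, 0.32, adjusted p = 0.28, and -0.44, adjusted p = 0.22). The share of ENST00000326324 in FGFR1 went from 13.4 ± 1.94% in Scramble to 7.24 ± 1.14% and 9.62 ± 0.54% (exact permutation p = 0.0238, adjusted 0.0595). Here too the samples of both siRNAs were pooled, and the transcript was chosen as the leading one from the same samples.

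The IIIc models of FGFR1 summed to 14.2 ± 1.73 FPKM in Scramble, 10.7 ± 0.70 under Si-FIBP#1 and 12.1 ± 1.33 in the Si-FIBP#2 samples. The 1 IIIb model, ENST00000397103, was at 1.90 ± 0.49, 1.52 ± 0.31 and 1.36 ± 0.33 FPKM, so that IIIc was the larger form in every sample. Of the factors known to set this choice, ESRP1 and ESRP2, which favour IIIb, did not pass the filter on low values. PTBP1, a splicing repressor known to act on FGF receptor exons, was at 219 to 229 FPKM in Scramble and fell with both siRNAs (log2 fold change -0.48, adjusted p = 3.7e-05, and -0.50, adjusted p = 2.9e-05). A further 15.0 ± 3.01 FPKM of FGFR1 in Scramble, 16.4 ± 0.93 under Si-FIBP#1 and 15.8 ± 1.90 with Si-FIBP#2 came from 41 transcripts that were not placed in these classes. The models without the exon for the first Ig domain were 2953 to 3824 nt long and those with it 2870 to 5702 nt, and the part of length in these sums was not tested.

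**Figure D2:**
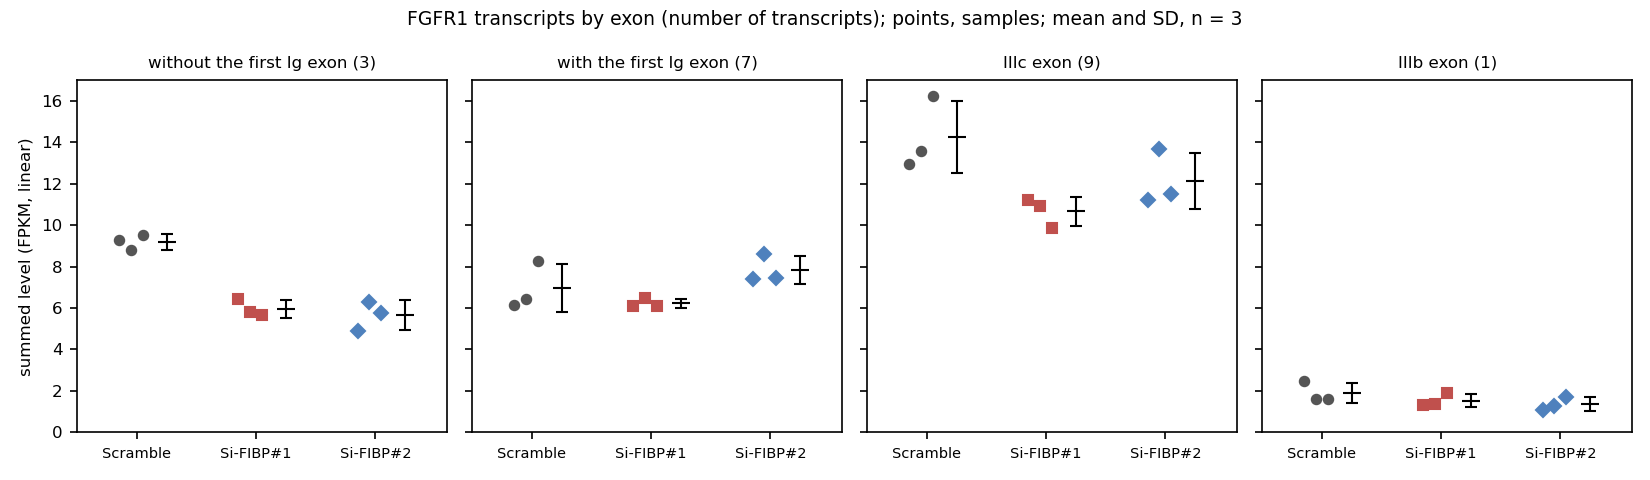
Summed FPKM of FGFR1 transcripts without and with the exon for the first Ig domain, and with the IIIc or IIIb exon, in each sample, with mean and SD. The forms without the first Ig exon are at 8.78 to 9.53 FPKM in Scramble and at 4.89 to 6.42 FPKM in the 6 depleted samples.

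The other kinase receptors were less abundant. FGFR2 reached at most 0.19 FPKM in any sample, an estimated 0 to 3 fragments, and was not tested. FGFR3 was at 0.42, 0.24 and 0.43 FPKM in Scramble, at 1.38, 0.75 and 1.46 FPKM in the Si-FIBP#1 samples and at 0.72, 2.15 and 0.67 FPKM in the Si-FIBP#2 samples. All 6 depleted samples lay above Scramble, as 26.3% of all genes tested did, and the highest was Si-FIBP#2 replicate 2. The estimated fragments were 22 to 29 in Scramble, 57 to 82 under Si-FIBP#1 and 46 to 142 in the Si-FIBP#2 samples. The means were 329% and 325% of Scramble. The log2 fold change missed the threshold with each siRNA (limma, 0.67, 95% interval 0.11 to 1.24, adjusted p = 0.0505, and 0.62, interval 0.05 to 1.18, adjusted p = 0.069) and was 1.46 and 1.31 with a pseudocount of 0.1 FPKM (adjusted p = 0.030 and 0.046). With both siRNAs together it was 0.65 with adjusted p = 0.031, where 32.6% of all genes tested were higher, but 0.077 without the filter and 0.056 with a replicate block. FGFR3 passed the filter through 3 depleted samples alone, so it could enter the test only as a gene high in depleted samples. Its separation and its tests are therefore not read against the shares of all genes. With both siRNAs together the adjusted p ran from 0.022 to 0.10 when 1 sample was left out. It stayed below 0.05 in 4 of 9 fits, those without Si-FIBP#1 replicate 2 or any of the Si-FIBP#2 samples. Without Si-FIBP#2 replicate 2 the value for Si-FIBP#2 was 0.32. Its leading transcript, ENST00000440486, was above 0 in 2 of 3 Scramble samples and in all depleted samples.

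FGFR4 was at 3.33, 3.75 and 2.81 FPKM in Scramble, at 2.85, 4.39 and 3.06 FPKM in the Si-FIBP#1 samples and at 3.63, 4.37 and 3.04 FPKM in the Si-FIBP#2 samples. FGFRL1, the receptor without a kinase, was at 17.38, 17.34 and 15.03 FPKM in Scramble, at 15.57, 15.90 and 14.98 in the Si-FIBP#1 samples and at 15.57, 18.52 and 15.70 in the Si-FIBP#2 samples. Neither was separated from Scramble. For FGFR4 the log2 fold change was 0.03 (limma, 95% interval -0.32 to 0.39, adjusted p = 0.87) and 0.12 (interval -0.24 to 0.48, adjusted p = 0.56). For FGFRL1 it was -0.09 (interval -0.28 to 0.10, adjusted p = 0.41) with Si-FIBP#1 and within -0.19 to 0.19 with Si-FIBP#2 (adjusted p = 1.00).

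**Figure D3:**
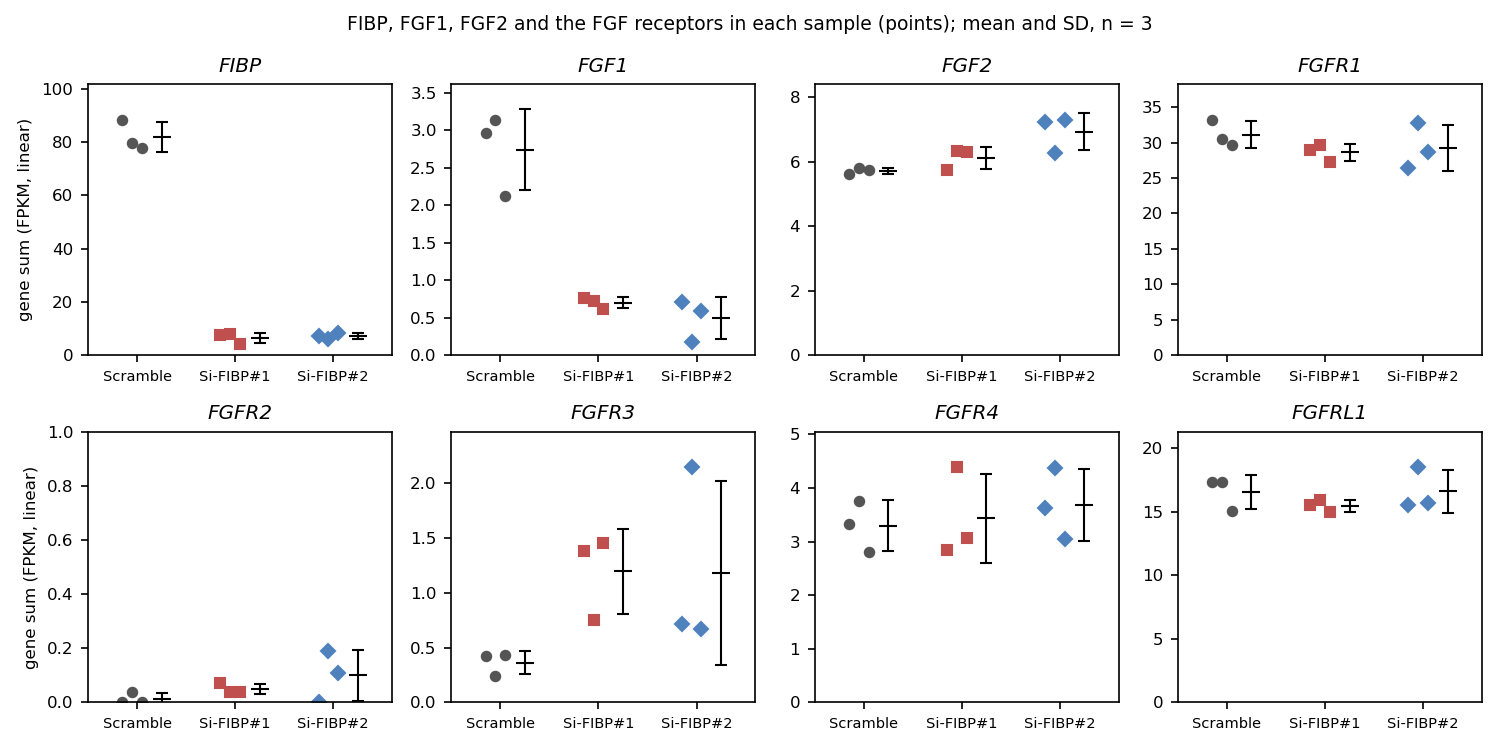
Gene sums in FPKM (linear axes, each from 0) of the 8 members in each sample, with mean and SD of 3 samples per group. FIBP and FGF1 are lower in all 6 depleted samples than in Scramble, FGFR3 is higher in all 6, and the other members overlap with Scramble in at least 1 group.

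In Scramble the order of levels was FIBP, FGFR1, FGFRL1, FGF2, FGFR4, FGF1, FGFR3 and FGFR2. The ranges of neighbours in this order did not overlap, except those of FGFR4 and FGF1, at 2.81 to 3.75 and 2.13 to 3.14 FPKM. Within each Scramble sample FGFR4 was still above FGF1, as it was within each depleted sample. FGFR3 was below FGF1 in each Scramble sample and above it in each of the 6 depleted samples, although their ranges there overlapped (0.67 to 2.15 and 0.18 to 0.76 FPKM). Under Si-FIBP#1 FGFR3 was at 1.38, 0.75 and 1.46 FPKM against 0.76, 0.72 and 0.62 for FGF1. With Si-FIBP#2 it was at 0.72, 2.15 and 0.67 FPKM against 0.71, 0.18 and 0.59. Some of these pairs are nearly equal, and their order was not tested. No member passed the test of Si-FIBP#2 against Si-FIBP#1, where 15.4% of all genes tested had an adjusted p below 0.05. The smallest adjusted p was 0.24, for FGF2 (log2 fold change 0.16, 95% interval -0.03 to 0.34), and 0 of 7 members had an unadjusted p below 0.05. For FGF1 the interval was -0.60 to 0.19 and for FIBP -0.28 to 0.54.

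**Figure D4:**
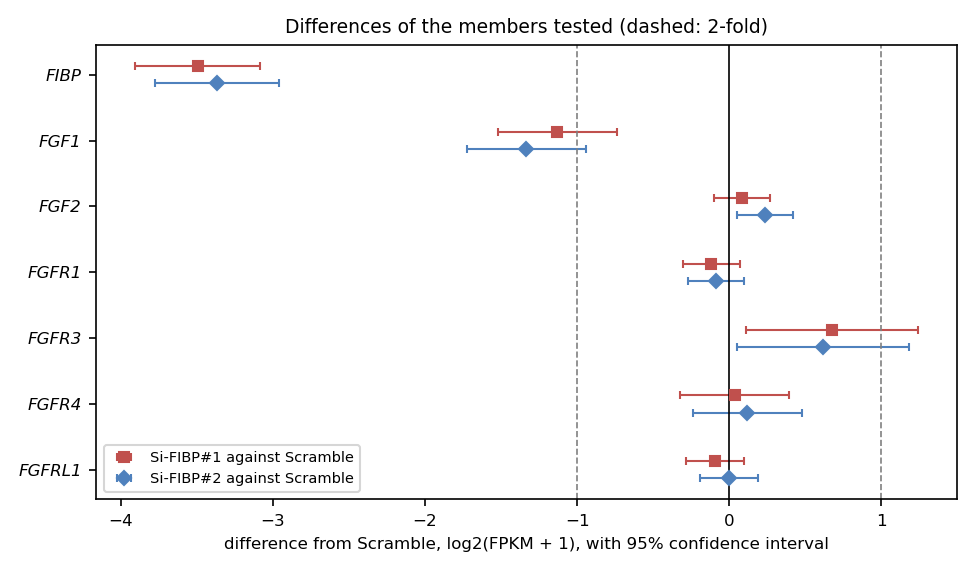
Difference of each siRNA from Scramble for the 7 members tested, on the log2(FPKM + 1) scale with 95% confidence intervals. The points of FIBP and FGF1 lie beyond the dashed 2-fold line with both siRNAs, but the intervals of FGF1 (-1.52 to -0.74 and -1.73 to -0.94) cross it. The intervals of FGFR1, FGFR4 and FGFRL1 include 0, and those of FGFR3 and, with Si-FIBP#2, of FGF2 lie above 0.

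The other genes of FGF signalling were taken from 8 lists with 83 genes, of which 51 passed the filter. The lists hold the other 7 members but not FIBP. At an adjusted p below 0.05, 9 rose and 15 fell under Si-FIBP#1, where 27.8% and 19.9% of all genes tested were. Under Si-FIBP#2, 10 rose and 19 fell, beside 31.1% and 17.7%. The median log2 fold change of the 51 was -0.07 for Si-FIBP#1 and near 0 for Si-FIBP#2, against 0.07 and 0.11 for all genes tested. With a fold change over 2, none was called higher with either siRNA, beside 2.55% and 2.92% of all genes tested, while 2 were called lower under Si-FIBP#1 and 4 under Si-FIBP#2, beside 3.11% and 2.13%. As shares of the 51 these are 3.92% and 7.84%, and with FIBP added 3 of 52 and 5 of 52 were lower. These counts include FGF1, which could enter the test only as a gene higher in Scramble, so they are not read against the shares of all genes.

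Among the 22 genes of the ligand list, which also holds intracellular FGF homologues, 5 passed the filter and 8 were listed at 0 in all samples. Of the 5, FGF1, FGF5 and FGF11 fell under each siRNA. FGF1 passed the filter through its Scramble samples alone and FGF11 through these and 1 Si-FIBP#2 sample. The filter thus favoured genes that fell, and the count is not set against all genes. FGF13, an intracellular homologue named after its values were seen, was at 0.37 to 0.54 FPKM in Scramble, 0.66 to 0.91 under Si-FIBP#1 and 0.32 to 1.05 in the Si-FIBP#2 samples and was not tested. FGF5, a secreted ligand known for its part in the hair cycle, was the most abundant. It was at 28.91, 30.66 and 29.18 FPKM in Scramble, 17.62, 15.54 and 19.24 under Si-FIBP#1 and 18.73, 11.09 and 17.88 in the Si-FIBP#2 samples. FGF5 fell with both siRNAs, by less than 2-fold (limma, -0.73, adjusted p = 0.0050, and -0.89, adjusted p = 0.0017). With Si-FIBP#2 it passed 2-fold from Ensembl transcripts only (-1.11) and after median-ratio scaling (-1.002). FGF11, likewise named after its values were seen, fell too (-0.68, adjusted p = 0.0047, and -0.43, adjusted p = 0.040), but the latter passed in only 1 of 9 fits without 1 sample (adjusted p up to 0.11) and missed the threshold without the filter, with only the groups compared and with a pseudocount of 0.1 FPKM (adjusted p = 0.068, 0.067 and 0.063). With that pseudocount FGF11 had -1.24 with Si-FIBP#1. FGF12, an intracellular FGF homologue like FGF11, was at 7.71 to 9.93 FPKM in Scramble and did not pass the test (-0.15 and 0.04, adjusted p = 0.47 and 0.84).

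Among 7 co-receptors and carriers that passed the filter, 3 fell and 2 rose under Si-FIBP#1, and 3 fell and 1 rose under Si-FIBP#2. Over all genes tested 19.9% fell and 27.8% rose under Si-FIBP#1, and 17.7% and 31.1% under Si-FIBP#2. SDC4, the syndecan that carries heparan sulfate and assists FGF2 signalling, was at 60.08, 61.92 and 64.47 FPKM in Scramble. It was at 26.36, 26.28 and 29.48 FPKM in the Si-FIBP#1 samples and at 24.73, 23.57 and 22.21 FPKM in the Si-FIBP#2 samples. SDC4 fell more than 2-fold with both (limma, -1.16, adjusted p = 1.4e-06, and -1.37, adjusted p = 9.0e-07). SDC1 fell too (-0.81, adjusted p = 2.6e-04, or -1.09 with a pseudocount of 0.1 FPKM, and -0.44, adjusted p = 0.0082) and SDC3 rose (0.57, adjusted p = 2.8e-04, and 0.40, adjusted p = 0.0021), both named after their values were seen. HSPG2, the perlecan core protein, was at 19.5 to 21.9 FPKM in Scramble and did not pass the test (0.21 and -0.04).

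All 12 adaptors and first signalling steps passed the filter, of which 2 rose and 2 fell under Si-FIBP#1 and 4 rose and 4 fell under Si-FIBP#2, beside 27.8% and 19.9%, and 31.1% and 17.7%, of all genes tested. SHC1 (104.04, 97.95 and 96.93 FPKM in Scramble) fell by 0.18 and 0.28 on the log2 scale (adjusted p = 0.020 and 0.0019), the former with adjusted p of 0.071 without Scramble replicate 1 and 0.080 without Si-FIBP#1 replicate 2. PTPN11, the phosphatase SHP2, was at 56.7 to 60.4 FPKM in Scramble and fell with both (-0.40, adjusted p = 0.0067, and -0.53, adjusted p = 0.0015). GRB2, named after its values were seen, rose with both (limma, 0.41, adjusted p = 0.0014, and 0.35, adjusted p = 0.0035). Of 4 binding partners of FIBP that the study names, FGF1 is described above. STAT3, a transcription factor, was at 18.38, 18.61 and 16.66 FPKM in Scramble, 31.80, 31.49 and 30.65 under Si-FIBP#1 and 29.16, 29.22 and 29.75 with Si-FIBP#2, and rose with both (0.78, adjusted p = 6.5e-06, and 0.69, adjusted p = 1.6e-05). CDK5, a proline-directed kinase, rose as well (0.31, adjusted p = 0.0019, and 0.38, adjusted p = 5.4e-04), and C2CD5 was at 29.7 to 31.7 FPKM in Scramble (-0.11, adjusted p = 0.12, and -0.18, adjusted p = 0.019, or 0.076 without Scramble replicate 3). C2CD5 passed the threshold with Si-FIBP#1 after TPM scaling (-0.16, adjusted p = 0.043) and median-ratio scaling (-0.18, adjusted p = 0.029), and the latter gave -0.30 with Si-FIBP#2. For STAT3 the paper reports unaltered total protein and lower reporter activity after FIBP knockdown. Those are other measures than the RNA given here.

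Of 8 feedback inhibitors that passed the filter, 2 rose and 2 fell under Si-FIBP#1, and 1 rose and 1 fell under Si-FIBP#2, beside 27.8% and 19.9%, and 31.1% and 17.7%, of all genes tested. SPRY1, a Sprouty inhibitor, was at 8.60, 9.75 and 9.95 FPKM in Scramble, 8.32, 7.86 and 7.46 under Si-FIBP#1 and 5.24, 2.33 and 3.52 in the Si-FIBP#2 samples. It fell with Si-FIBP#2 (limma, -1.20, adjusted p = 6.3e-04, and -0.97 without Si-FIBP#2 replicate 2), had -0.23 with Si-FIBP#1 (adjusted p = 0.34, or 0.0497 with only the groups compared), and the siRNAs differed by -0.96 (adjusted p = 0.0091). SPRY2, the most abundant of the list at 70.5 to 75.6 FPKM in Scramble, rose with Si-FIBP#1 (0.46, adjusted p = 2.2e-04) and had -0.05 with Si-FIBP#2 (adjusted p = 0.50), or -0.17 with adjusted p = 0.030 after median-ratio scaling. SPRY4, at 37.4 to 42.0 FPKM in Scramble, fell with Si-FIBP#1 (-0.17, adjusted p = 0.035, below 0.05 in 5 of 9 fits without 1 sample and 0.057 with no trend) and had 0.11 with Si-FIBP#2 (adjusted p = 0.15).

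Genes of FGF1 secretion and of its passage into the nucleus followed. Of 11, 2 rose and 4 fell under Si-FIBP#1, and 2 rose and 6 fell under Si-FIBP#2, beside 27.8% and 19.9%, and 31.1% and 17.7%, of all genes tested. HSP90AA1, a chaperone needed for translocation of FGF1 across the membrane, was at 1354, 1346 and 1328 FPKM in Scramble, 732, 730.0 and 761 under Si-FIBP#1 and 591, 656 and 595 in the Si-FIBP#2 samples. It fell with both (-0.86, adjusted p = 1.0e-06, and -1.13, adjusted p = 5.4e-07) and passed the 2-fold threshold with Si-FIBP#2. HSP90AB1, at 1379 to 1392 FPKM in Scramble, had -0.05 with Si-FIBP#1 (adjusted p = 0.24, but -0.10 with 0.046 after TPM scaling and -0.13 with 0.015 after median-ratio scaling) and fell with Si-FIBP#2 (-0.27, adjusted p = 1.8e-04). RBFOX2, the other exon choice factor that passed the filter, was at 41.0 to 45.7 FPKM in Scramble and had -0.13 with each siRNA (adjusted p = 0.16 and 0.18). After median-ratio scaling RBFOX2 had -0.21 and -0.24 (adjusted p = 0.049 and 0.026).

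**Figure D5:**
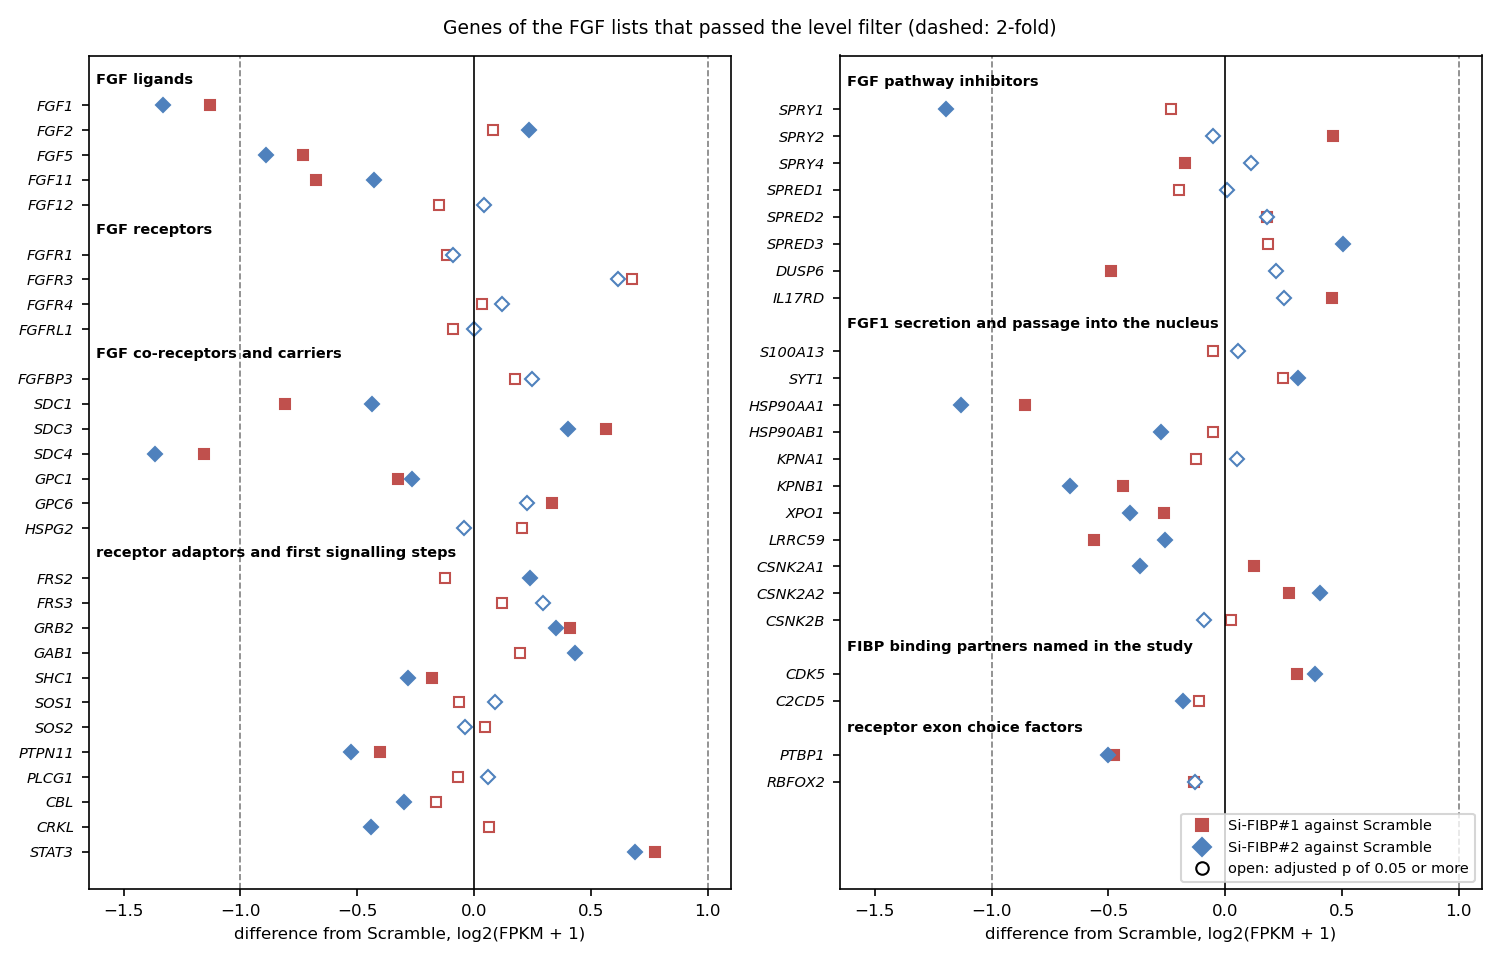
Difference of each siRNA from Scramble on the log2(FPKM + 1) scale for the 51 genes of the lists that passed the filter, each drawn once; open symbols have an adjusted p of 0.05 or more. FGF1 and SDC4 lie beyond the dashed 2-fold line with both siRNAs, SPRY1 and HSP90AA1 in the Si-FIBP#2 samples.

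The genes next to FIBP on chromosome 11 were examined, 4 protein-coding genes on each side in release 29. CTSW, which ends where the FIBP model ends, stayed at or below 0.13 FPKM, and SNX32 was not tested. FOSL1, an AP-1 subunit 3510 bp away and read from the same strand, was at 282.72, 275.26 and 273.95 FPKM in Scramble, 161.26, 186.26 and 171.28 under Si-FIBP#1 and 178.63, 204.42 and 191.49 in the Si-FIBP#2 samples. It fell with both (limma, -0.68, adjusted p = 2.7e-05, and -0.53, adjusted p = 1.3e-04), as did DRAP1 (-0.47, adjusted p = 2.4e-05, and -0.60, adjusted p = 6.2e-06) and MUS81 (-0.45, adjusted p = 0.0032, and -0.26, adjusted p = 0.042, the latter in 3 of 9 fits without 1 sample, and 0.086 without the filter, 0.052 with no trend and 0.077 with only the groups compared). CCDC85B, the nearest neighbour upstream, rose (0.39 with each siRNA, adjusted p = 0.018 and 0.019, held in 7 and 6 of 9 fits without 1 sample, but 0.057 and 0.060 without the filter and 0.054 and 0.094 after median-ratio scaling). C11orf68 rose with Si-FIBP#1 (0.31, adjusted p = 0.0021) and had -0.02 with Si-FIBP#2, and EFEMP2 did not pass the test (0.17 and 0.08). None of the 6 neighbours tested was called at 2-fold, where 2.55% of all genes tested were higher and 3.11% lower under Si-FIBP#1 and 2.92% and 2.13% under Si-FIBP#2, so a count of 0 among 6 does not set them apart. Without the fold threshold 27.8% of all genes rose and 19.9% fell under Si-FIBP#1, and 31.1% and 17.7% under Si-FIBP#2.

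The genes whose log2(FPKM + 1) followed FIBP most closely over the 9 samples were PFN1 (Pearson r = 0.997), TAGLN2 (0.997), SLC1A5, FASN and NOP56 (0.992), and the most opposite were OSTM1, TFPI and RAP2C-AS1 (-0.995), IFI27L2 and LIPA (-0.994). The points fall into the Scramble samples and the depleted samples, which r does not separate from the spread within them. The r of FGF1 with FIBP was 0.955. PFN1 averaged 1872 FPKM in Scramble, 1247 under Si-FIBP#1 and 1277 with Si-FIBP#2, while TFPI averaged 11.6, 33.7 and 32.1 FPKM. FGFR1 was followed most closely by ARAF (0.951), RNF126 and SERP1 (0.935) and was most opposite to EIF3E (-0.972), RPS6 (-0.937) and RPS25 (-0.933). Apart from FGF1, the genes named for FIBP and for FGFR1 were picked as the extremes of many genes over only 9 samples. Whether r of this size arises without a relation in so wide a search was not tested. No link of these genes to FIBP or FGFR1 is therefore read from r.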

How the data were processed

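H1299 cells transfected with Scramble, Si-FIBP#1 or Si-FIBP#2 for 48 h were sequenced, with 3 samples per group. FPKM per transcript were deposited in 1 table for each sample, for Ensembl transcripts and transcripts assembled from the reads. Per the labels, RNA was poly(A)-selected and HISAT2 and StringTie were used. Versions, annotation and genome build are not given in the sources used here, and that the values are FPKM was read from their behaviour. Transcripts were summed per gene. The 14985 genes that reached 1 FPKM in 3 or more samples entered limma (version 3.58.1, R 4.3.3), fitted on log2(FPKM + 1), with a mean-variance trend, 1 fit over 9 samples and Benjamini-Hochberg adjustment over all genes, and transcripts (47662) likewise. Genes were called at an FDR below 0.05 and a fold change over 2. The steps were tested on simulated data with changes of a fixed size, planted only in more abundant features. FGF1, FGF2, FGFR2, FGFR3 and FGFR4 lay below that level, so the simulation does not cover them. Depth was estimated from 2012 to 2419 genes per sample with a single transcript of 400 to 1200 nt and a value below 1 FPKM, where 81.6% to 84.1% of values were whole fragments (rounding of the file plus 0.02 fragments allowed). Estimated fragments cover counting error only. Alternatives covered the pseudocount, filter, scaling, assembled transcripts, fit and left-out samples.

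Members, lists and tests were chosen with earlier results of these data known. The genes named were the 8 members, their transcripts that reached 1 FPKM, the called and the 2 most abundant genes of each list, the 4 protein-coding neighbours on each side of FIBP, the genes most and least like FIBP and FGFR1, and cell type markers. Beyond this rule, all 4 binding partners that the study names were given, STAT3 among them. So were the list genes that differed between the siRNAs. Transcript models came from GENCODE release 29 (GRCh38) and promoter windows from RefSeq (GRCh38.p14). The file gives ENST00000357519 a length of 1361 nt and release 29 gives 1248 nt, so models can differ. The siRNA sequences and proteins were not used here. A marker of the line is not reported here.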

Additional observations from a re-analysis of the deposited data

Results flagged for a closer look

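The siRNAs differed in 11 of the 51 list genes tested, by the contrast of Si-FIBP#2 against Si-FIBP#1 itself (limma, adjusted p below 0.05), while 15.4% of all genes tested did. Among the inhibitors, the log2 difference was -0.96 for SPRY1 (adjusted p = 0.0091, or -1.14 with a pseudocount of 0.1 FPKM), -0.52 for SPRY2 (adjusted p = 9.3e-04), 0.28 for SPRY4 (adjusted p = 0.012) and 0.71 for DUSP6 (adjusted p = 0.024). DUSP6, a phosphatase that inactivates ERK, was at 22.59, 23.80 and 25.31 FPKM in Scramble, 16.55, 16.06 and 17.61 under Si-FIBP#1 and 35.47, 19.62 and 31.27 in the Si-FIBP#2 samples. When 1 sample was left out, the DUSP6 difference ran from 0.54 to 0.95 and passed the threshold in 4 of 9 fits. It missed it without the filter (adjusted p = 0.079) and with only the groups compared (adjusted p = 0.055). The difference for SDC1 was 0.37, which passed in 1 of 9 fits without 1 sample and missed the threshold under 5 other settings, with adjusted p from 0.064 to 0.12. The difference was 0.36 for FRS2, -0.51 for CRKL, -0.27 for HSP90AA1, -0.22 for HSP90AB1, 0.31 for LRRC59 and -0.49 for CSNK2A1, each passing in 9 of 9 such fits.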

How the results depend on the processing

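The calls of FIBP and FGF1 with each siRNA held under every alternative in which they were tested. The filter was taken over all 9 samples even when 1 was left out, so FGF1 stayed in those fits through its Scramble samples. Without the filter FGF1 had -1.13 and -1.33 (limma, adjusted p = 0.0027 and 0.0012). With a filter of 5 FPKM, FGF1 was not tested and 1 member was called with Si-FIBP#1, with Si-FIBP#2 and with both together. FGF2 with Si-FIBP#2 (0.24) missed the threshold without a filter, with Ensembl transcripts only, with the groups compared alone (adjusted p = 0.060, 0.052 and 0.060) and after median-ratio scaling (0.14). FGFR1 passed it after median-ratio scaling with Si-FIBP#2 (-0.20) and with both siRNAs (-0.20). FGFR3 passed it with a pseudocount of 0.1 FPKM (1.46 and 1.31), and for Si-FIBP#1 with the groups compared alone or no trend (0.67). For both siRNAs together it missed it without a filter (0.65). Leaving out 1 sample gave 0.20 to 0.30 for FGF2 with Si-FIBP#2 and 0.14 to 0.19 with both, and for FGFR3 0.59 to 0.83, 0.32 to 0.77 and 0.50 to 0.72.

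Genes called numbered 848, 757, 721 and 84 in the 4 comparisons, 1498, 1411, 1418 and 172 with a pseudocount of 0.1 FPKM, and 7146, 7309, 7938 and 2304 without a fold threshold. Between the siRNAs they ranged from 75 to 132 without 1 sample, the highest without Si-FIBP#2 replicate 2. Of the list genes, 5 were called with Si-FIBP#1 and 1 between the siRNAs with a pseudocount of 0.1 FPKM, 1 with Si-FIBP#1 and 1 with both siRNAs at a filter of 5 FPKM, and 4 with both siRNAs from Ensembl transcripts only. Without 1 sample the count between the siRNAs was 0 to 1.

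No source says that a replicate number marks a shared culture or day, and the deviations of same-numbered samples correlated at -0.057 to 0.103 (median 0.046, against -0.011 for different numbers), so the numbers were not used to pair samples. With a replicate block, genes called were 853, 760.0, 725 and 88, FGF2 with Si-FIBP#2 had 0.24 (adjusted p = 0.058) and FGFR3 with both siRNAs 0.65 (adjusted p = 0.056). The causes of these changes were not tested.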
